A study of Mus musculus with 3 samples.

Results

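*Wfdc17*, *Wfdc21*, *Slpi* and *Stfa2l1* are 4 of the 27998 genes counted in single cells of the mouse meninges, and all encode small proteins of protease inhibitor families. They were picked by symbol, with earlier results of these data known, because of how their levels differed between cells or between libraries. Their levels between stressed and unstressed mice are therefore given as a description, and no test of the members is used. They were followed in the 7057 barcodes that held at least 500 unique molecular identifiers (UMIs, each standing for 1 captured RNA molecule), a number of detected genes inside the lower and upper limits of the study, and under 8.3% of UMIs from mitochondrial genes.

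The study asked how chronic social defeat (CSD), a stress paradigm in which a mouse is repeatedly exposed to an aggressor, changes the cells of the meninges. Cells were sorted as live, nucleated singlets, with no gate on a leukocyte marker, and captured with droplet-based 3′ sequencing. All 3 libraries came from male wild-type C57BL/6J mice aged 10 to 12 weeks, and each library pooled 4 mice. The home cage (HC) group, unstressed, gave 2 libraries from 8 mice, and the CSD group gave 1 library from mice that had 14 days of defeat and were screened for stress susceptibility. The libraries are called HC replicate 1, HC replicate 2 and CSD replicate 1 here. They ran in separate lanes of 1 chip, so that lane and pool cannot be told apart. With 1 CSD pool, no difference between the groups has a replicate check on the CSD side, and the p-values given for other genes measure only the spread between the 2 HC pools.

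Whey acidic protein (WAP) domains are compact folds held together by disulfide bonds. The best known WAP protein in leukocytes, the secretory leukocyte protease inhibitor encoded by *Slpi*, blocks neutrophil elastase and cathepsin G, which are serine proteases stored in neutrophil granules. *Wfdc17* encodes a WAP protein described in activated macrophages and microglia, and *Wfdc21* encodes a further secreted WAP protein. Stefins, the other family, sit inside cells and block cysteine cathepsins of the lysosome, and *Stfa2l1* belongs to a group of closely related stefin A genes that expanded in the mouse. Neutrophils make their granule proteins in sequence as they mature, so that genes such as *Ltf*, *Camp* and *Ngp* are high in young cells and fall in mature ones.

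In the genome build of the files (mm10, GRCm38), and by the GENCODE annotation of that build, the pair of *Wfdc* genes lies together. *Wfdc17* (ENSMUSG00000069792) spans chr11:83703991-83706268 on the plus strand, and *Wfdc21* (ENSMUSG00000051748) spans chr11:83746940-83752642 on the same strand, 40671 bp further on. Both have 3 exons. *Wfdc18*, another WAP gene, lies 2746 bp from *Wfdc17* and gave only 48 UMIs in all neutrophil-like cells. *Slpi* (ENSMUSG00000017002) lies on the minus strand of chr2:164354070-164389095, although its main transcript with 4 exons covers only the part from 164354070 to 164356507. *Stfa2l1* (ENSMUSG00000059657) lies at chr16:36156811-36161953 on the plus strand with 3 exons, 22258 bp from the stefin A gene *Gm5483*. Because near-identical copies can split reads, the last 400 bases of each transcript, where 3′ reads fall, were compared with all other transcripts in windows of 98 bases. For each member 0 of 303 windows occurred unchanged in another gene.

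The 150 bases before the start of transcription are shown for the members that had a RefSeq promoter sequence (GRCm38.p6), since these genes were followed as a group across the same cells. The sequence table matched 3 of the 4 members, and *Wfdc21* was missing from it. Windows are chr11:83703841-83703990 on the plus strand for *Wfdc17*, chr2:164356508-164356657 on the minus strand for *Slpi*, and chr16:36156661-36156810 on the plus strand for *Stfa2l1*. Each is printed 5′ to 3′ along the gene, and capitals mark the only match to the motifs searched.
Wfdc17: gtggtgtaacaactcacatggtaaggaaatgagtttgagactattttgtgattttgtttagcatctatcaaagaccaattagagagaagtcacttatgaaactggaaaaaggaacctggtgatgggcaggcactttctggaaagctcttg
Slpi: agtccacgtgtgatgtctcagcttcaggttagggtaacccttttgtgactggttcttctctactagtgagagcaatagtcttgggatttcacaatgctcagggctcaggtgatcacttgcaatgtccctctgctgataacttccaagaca
Stfa2l1: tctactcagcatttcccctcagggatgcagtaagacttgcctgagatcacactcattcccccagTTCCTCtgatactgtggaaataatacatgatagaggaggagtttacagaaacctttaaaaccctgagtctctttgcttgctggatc

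The letters searched on both strands were the TATA box TATAAA, the core GAGGAA bound by the myeloid factor PU.1, and TTGCNNAA, a string after the sites of C/EBP factors. They do not overlap one another in these windows. *Stfa2l1* held GAGGAA on the opposite strand, which reads TTCCTC on the printed strand and begins 86 bases before the start. *Wfdc17* and *Slpi* held none of the 3 strings. Across 32817 windows of the same length TATAAA occurred in 7.58%, GAGGAA in 14.5% and TTGCNNAA in 5.47%, so a single match among 3 promoters describes these letters and no more.

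The libraries held 2599 (HC replicate 1), 1702 (HC replicate 2) and 2756 (CSD replicate 1) cells, with median depths of 2503, 2212 and 2400.5 UMIs. HC replicate 2 stood apart in the amount of RNA outside cells, since barcodes of at most 100 UMIs held 24.1% of its UMIs against 7.87% and 5.48% in the other libraries. Pairs of libraries shared 3 to 8 cell barcodes. Cells were clustered without the members and without other inhibitor genes and named by marker genes. The neutrophil-like cells numbered 779, 557 and 1312, given like all later triplets with both HC libraries first and CSD replicate 1 last, which is 30.0%, 32.7% and 47.6% of cells, and all 24 neutrophil markers looked for were present in each library. Levels are UMIs of a gene per 1000000 UMIs of the cell class (CPM), with no adjustment for gene length because each 3′ UMI stands for 1 molecule.

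**Figure D1:**
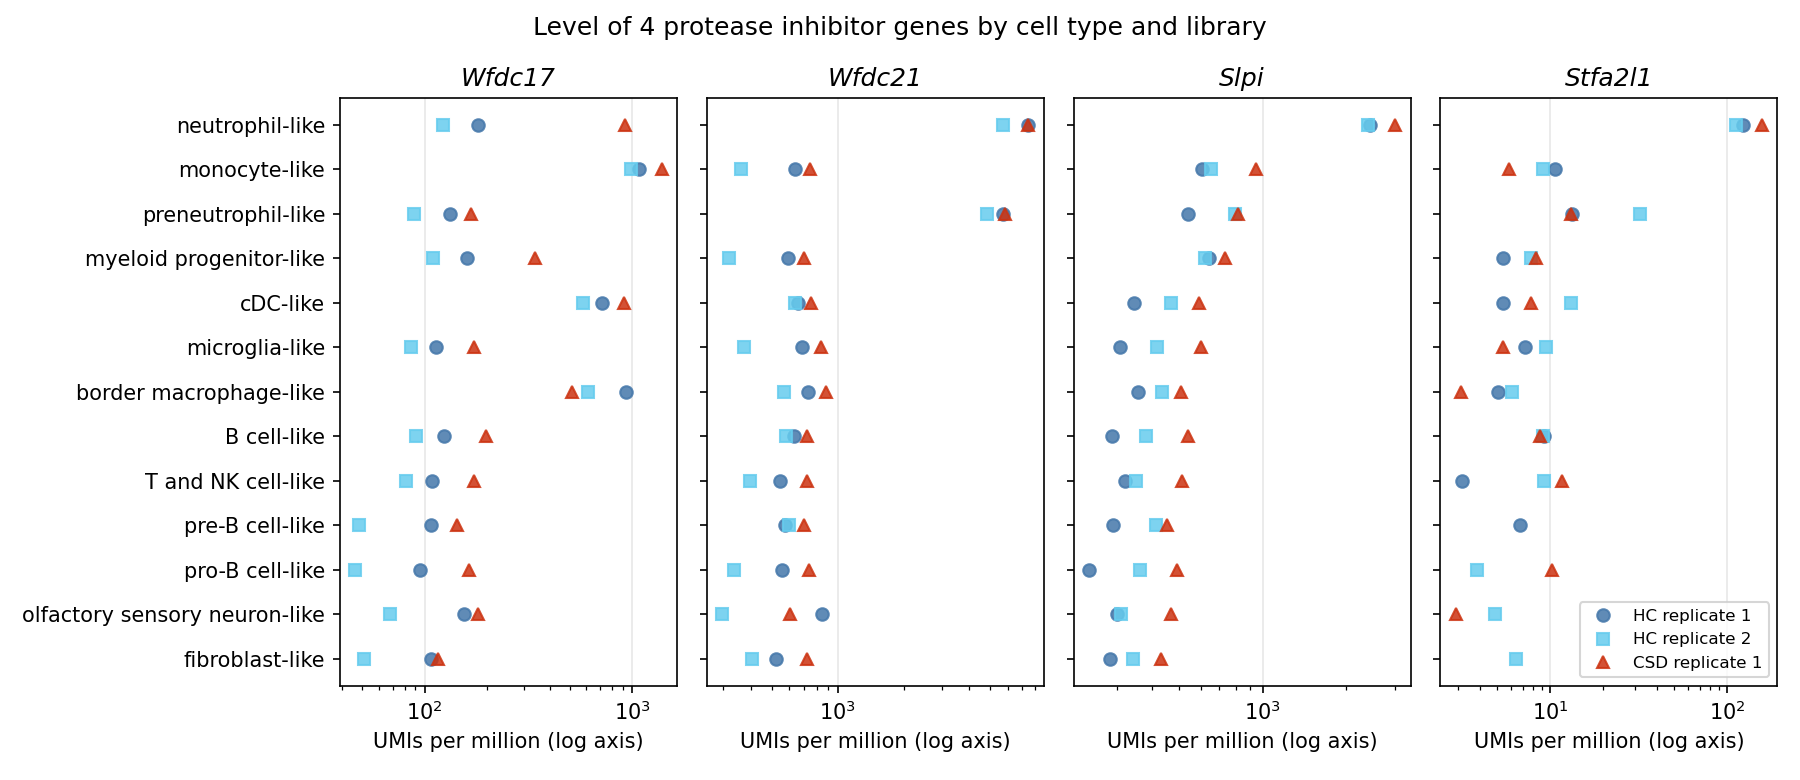
Level of each member in 13 cell types that had at least 20 cells in each library, in CPM on a log axis whose range differs between panels. Points are the 3 libraries, and a library with 0 UMIs is not drawn, which applies to *Stfa2l1* in a few types. *Slpi* and *Stfa2l1* stand out in neutrophil-like cells, and *Wfdc21* in neutrophil-like and preneutrophil-like cells. *Wfdc17* is also high in monocyte-like, cDC-like and border macrophage-like cells.

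The members fell into different cell types in the plot of levels by cell type. UMIs of *Wfdc21*, *Slpi* and *Stfa2l1* lay mainly in neutrophil-like cells, which were 2648 of the 7057 cells. They held 69.4% of 67989, 67.0% of 26982 and 88.0% of 1049 UMIs of these genes in all cells. *Wfdc17* was spread over the myeloid cells, with 37.1% of its 9910 UMIs in neutrophil-like cells, 1982 of them in monocyte-like cells, 12.5% in conventional dendritic cell (cDC)-like cells and 11.9% in border macrophage-like cells. T and NK cell-like cells were taken as cells that should lack the members, to give a background level.

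*Wfdc17* was highest in monocyte-like cells, at 1081, 980 and 1383 CPM, a mean of 1148 ± 209 (SD, n = 3 libraries). The next type, cDC-like cells, reached 715, 581 and 907 CPM and lay below in every library, so that the first step of the order exceeded the spread between libraries. From there on the order was not separable, since border macrophage-like cells at 685 ± 218 CPM (SD, n = 3) and neutrophil-like cells at 407 ± 443 overlapped with cDC-like cells and with each other. The SD of the neutrophil-like cells exceeded their mean, because the CSD library was far from both HC libraries. Myeloid progenitor-like cells held 159, 110 and 339 CPM, and the preneutrophil-like, lymphoid, microglia-like, neuronal and stromal types lay between 91.1 and 137 CPM on average.

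For *Wfdc21* the order had one large step. Neutrophil-like cells at 6846 ± 1012 CPM (SD, n = 3) and preneutrophil-like cells, their dividing precursors, at 5450 ± 563 overlapped between libraries, although within each library the neutrophil-like cells were higher (7398 against 5730, 5678 against 4802 and 7463 against 5818 CPM). Border macrophage-like cells followed at 728 CPM, with no overlap with the preneutrophil-like cells. The preneutrophil-like cells of HC replicate 2 were shallow, with a median of 944.5 UMIs against 10414.5 and 10676.5, and they had the lowest *Wfdc21* level of the 3 libraries at 4802 CPM against 5730 and 5818.

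*Slpi* showed a step in another place. Neutrophil-like cells held 2607 ± 340 CPM (SD, n = 3), above every other type in each library, but preneutrophil-like cells held only 718 ± 155 CPM. That was inside the range of monocyte-like cells at 736 ± 185 and of myeloid progenitor-like cells at 666 ± 60.5. *Stfa2l1*, the stefin, held 131 ± 23.9 CPM (SD, n = 3) in neutrophil-like cells. In preneutrophil-like cells it rested on 31 UMIs, at 13.3, 32.3 and 13.1 CPM, and no other type averaged more than 9.03 CPM.

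Likeness across the 13 cell types, measured as Pearson's r of log2(CPM + 10) over type means among 9473 genes, gave each member different partners. This is a description of points that share 3 libraries and their free RNA. *Wfdc21* was most like *S100a8* (r = 1.00), *S100a9* (1.00), *Lcn2* (0.99), *Chil1* (0.99) and *Ltf* (0.99), the first pair being calprotectin subunits and *Lcn2* and *Ltf* granule genes. *Slpi* was most like *Bmx* (0.97), *Tarm1* (0.94), the collagenase gene *Mmp8* (0.94), *Stfa2l1* itself (0.94) and the lectin receptor gene *Clec4d* (0.94). *Stfa2l1* was most like *Gm20406* (0.97), *Irg1* (0.97), *Mmp8* (0.96), *Il1f9* (0.96) and the chemokine receptor gene *Cxcr2* (0.95). *Wfdc17* paired with receptor genes, namely *Klra2* (0.96), *Sirpb1c* (0.94), *C130050O18Rik* (0.93) and *Clec4a1* (0.92), and with *Mnda* (0.91), and its r with the other members was 0.10 for *Wfdc21*, 0.42 for *Slpi* and 0.28 for *Stfa2l1*.

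In the neutrophil-like cells *Wfdc17* was the member with the largest difference between groups. HC replicate 1 held 336 *Wfdc17* UMIs or 180 CPM (95% exact Poisson interval 161 to 200), and HC replicate 2 held 161 UMIs or 122 CPM (104 to 143). CSD replicate 1 held 3182 UMIs or 917 CPM (886 to 950). These intervals cover counting error only. The CSD library was above both HC libraries, with a log2 ratio of 2.60 to the HC mean, while the HC libraries differed from each other by -0.56 (HC replicate 2 against HC replicate 1).

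The other 3 members differed less. *Slpi* held 2425, 2398 and 2999 CPM, a log2 ratio of 0.31, and its HC libraries lay close together. *Stfa2l1* held 122, 112 and 158 CPM from 228, 148 and 547 UMIs, a log2 ratio of 0.43. For *Wfdc21*, at 7398, 5678 and 7463 CPM, CSD replicate 1 was almost level with HC replicate 1, and the log2 ratio of 0.19 was smaller than the gap of -0.38 between the HC libraries.

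To set these differences beside those of other genes, sums per library were fitted over all genes detected in over 15% of this class, with edgeR's quasi-likelihood test and Benjamini-Hochberg adjustment. Of 1186 genes 1 was called, which is 0.0843% (*Mgp*, a matrix protein gene, log2 fold change -3.27, adjusted p = 0.0308), and 140 had an unadjusted p under 0.05. *Mgp* was also a leading gene of the fibroblast-like cells, which made up 4.77%, 5.17% and 0.73% of all cells. Its log2 fold change in monocyte-like cells was -2.87, and the part of free RNA in either value was not tested. The CSD library was above both HC libraries for 39.9% of the 1186 genes and below both for 37.8%. DESeq2 called 13 genes. All 4 members passed the filter and lay above both HC libraries. *Stfa2l1* was detected in 13.7%, 11.1% and 17.7% of these cells, unthinned, so it passed the 15% filter only through the CSD library. In monocyte-like cells 3 of 3081 genes were called, or 0.0974%, and 225 had an unadjusted p under 0.05, and the CSD library was above both HC libraries for 34.1% and below both for 32.9%. There 3 members passed the filter, all 3 above both HC libraries. The members were chosen on such values, so nothing is read from these counts and the members' own calls are not given.

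In monocyte-like cells *Wfdc17* held 1081 (607 UMIs), 980 (430 UMIs) and 1383 CPM (945 UMIs), a log2 ratio of 0.42. *Slpi* held 607, 654 and 948 CPM (log2 ratio 0.59) and *Wfdc21* 637, 362 and 748 CPM (0.58). The level of *Wfdc21* in monocyte-like cells was close to that in T and NK cell-like cells, described next. The CSD library, with 129 such cells, was above both HC libraries for each of these genes.

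T and NK cell-like cells, which should lack the members, still held them. Their *Wfdc17* level was 108, 81.0 and 172 CPM, that of *Wfdc21* 542, 398 and 721, that of *Slpi* 319, 349 and 512, and that of *Stfa2l1* 3.18, 9.26 and 11.6 from 13 UMIs. The log2 ratio of CSD to HC in these lymphocytes was 0.87 for *Wfdc17*, and 0.62 for both *Wfdc21* and *Slpi*. Barcodes of at most 100 UMIs, which hold free RNA, gave 474, 199 and 517 CPM of *Wfdc17*, 2021, 1833 and 2950 of *Wfdc21*, and 808, 1031 and 1241 of *Slpi*, highest in the CSD library each time.

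**Figure D2:**
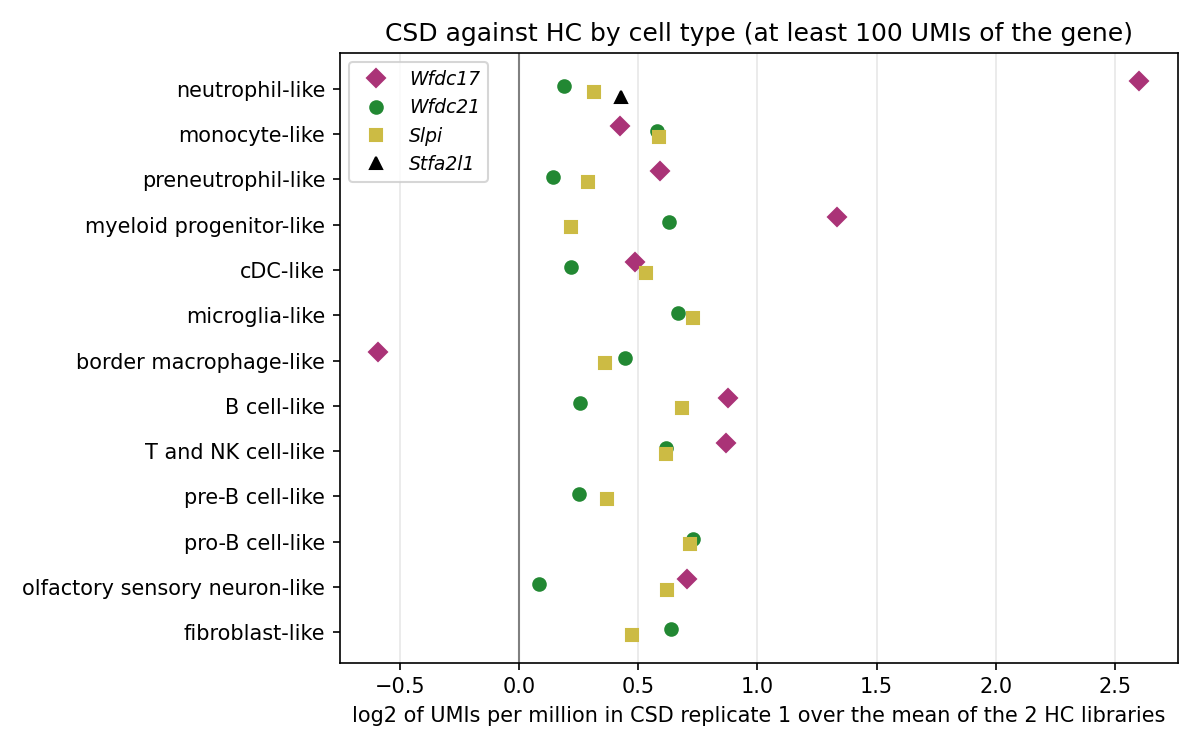
Log2 ratio of CPM in CSD replicate 1 to the mean of the 2 HC libraries, in the 13 cell types with at least 20 cells in each library, for each member with at least 100 UMIs in the type. The grey line marks 0, and the symbols are single values without a replicate on the CSD side. *Wfdc17* lies at 2.60 in neutrophil-like cells and at -0.59 in border macrophage-like cells, and the other values drawn are above 0.

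Differences of this kind were seen across cell types, as the plot of log2 ratios shows. The CSD library was above both HC libraries in 12 of 13 cell types for *Wfdc17*, in 12 of 13 for *Wfdc21*, in all 13 for *Slpi* and in 4 of 13 for *Stfa2l1*. The types share 1 CSD library and its free RNA, so they are not separate observations. The share of all genes above both was counted only in neutrophil-like (39.9%) and monocyte-like cells (34.1%). Outside the neutrophil-like and preneutrophil-like cells *Stfa2l1* had at most 19 UMIs per type, so its count carries little. In the 7 lymphoid, microglia-like, neuronal and stromal types the log2 ratio ranged from 0.55 to 1.21 for *Wfdc17*. It ranged from 0.08 to 0.73 for *Wfdc21* and from 0.37 to 0.73 for *Slpi*. The ratios of *Slpi* and *Wfdc21* in neutrophil-like cells, 0.31 and 0.19, fell below the medians of those types, both 0.62, whereas that of *Wfdc17* at 2.60 lay above the whole range.

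The level in neutrophil-like cells divided by that in T and NK cell-like cells of the same library gives a ratio to a background that itself differed between libraries. For *Wfdc17* it was 1.67, 1.51 and 5.32, and the excess over lymphocytes was 72.0, 41.2 and 745 CPM. *Wfdc21* gave 13.7, 14.3 and 10.3, and *Slpi* gave 7.59, 6.86 and 5.85, so for both the CSD library had the lowest of the 3 ratios. *Stfa2l1* gave 38.4, 12.1 and 13.6, with the few lymphocyte UMIs making the first ratio uncertain. The lymphocyte levels of *Wfdc21* and *Slpi* were highest in the CSD library, and their part in these ratios was not tested. An estimate from 6 B cell genes put the share of free RNA in neutrophil-like cells at 38.5%, 33.8% and 29.9%, lowest in the CSD library. In T and NK cell-like cells that share was 42.4%, 35.9% and 35.9%.

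Shares of cells gave the same contrast. After each cell was thinned to 500 UMIs, 7.96%, 4.85% and 27.6% of neutrophil-like cells had a *Wfdc17* UMI (30.2%, 19.6% and 57.5% unthinned). T and NK cell-like cells gave 6.23%, 5.42% and 7.84% after thinning. Both HC shares thus lay at about the lymphocyte background, and the CSD share did not. The median depths were 1908, 1757 and 2168 UMIs in neutrophil-like cells and 2190, 2467.5 and 2006 in the lymphocytes. For *Slpi* the shares were 68.7%, 67.0% and 74.9% against a background of 13.6%, 14.5% and 19.4%, and for *Wfdc21* 83.6%, 79.0% and 89.0% against 22.6%, 16.3% and 29.9%. *Stfa2l1* was seen in 6.80%, 4.67% and 9.15% of neutrophil-like cells.

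The neutrophil-like cells were split into 5 subclusters without using the members, and ordered from subcluster 1 to 5 by a falling share of granule genes, from 15.7% to 1.52% of UMIs. Subclusters 1 and 2 were led by *Fcnb*, *Ltf*, *Camp* and *Ngp*, genes of young neutrophils, and subcluster 3 by *Retnlg*, *Mmp8* and *Mmp9*. Subcluster 4 was led by *Ccl6* and *Clec4d* with *Stfa2l1* itself, and subcluster 5 by *Il1b*, *Ifitm1* and *Csf3r* with *Wfdc17* itself. Leading genes had to be detected in 20% of the cells, which *Stfa2l1* reached only through the CSD library (16.7%, 18.7% and 23.2% of subcluster 4). The *Wfdc17* UMIs of subcluster 5, at 80, 67 and 1394, came mostly from the CSD library. Depth fell along the order as well, from a median of 4392 to 941 UMIs per cell.

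**Figure D3:**
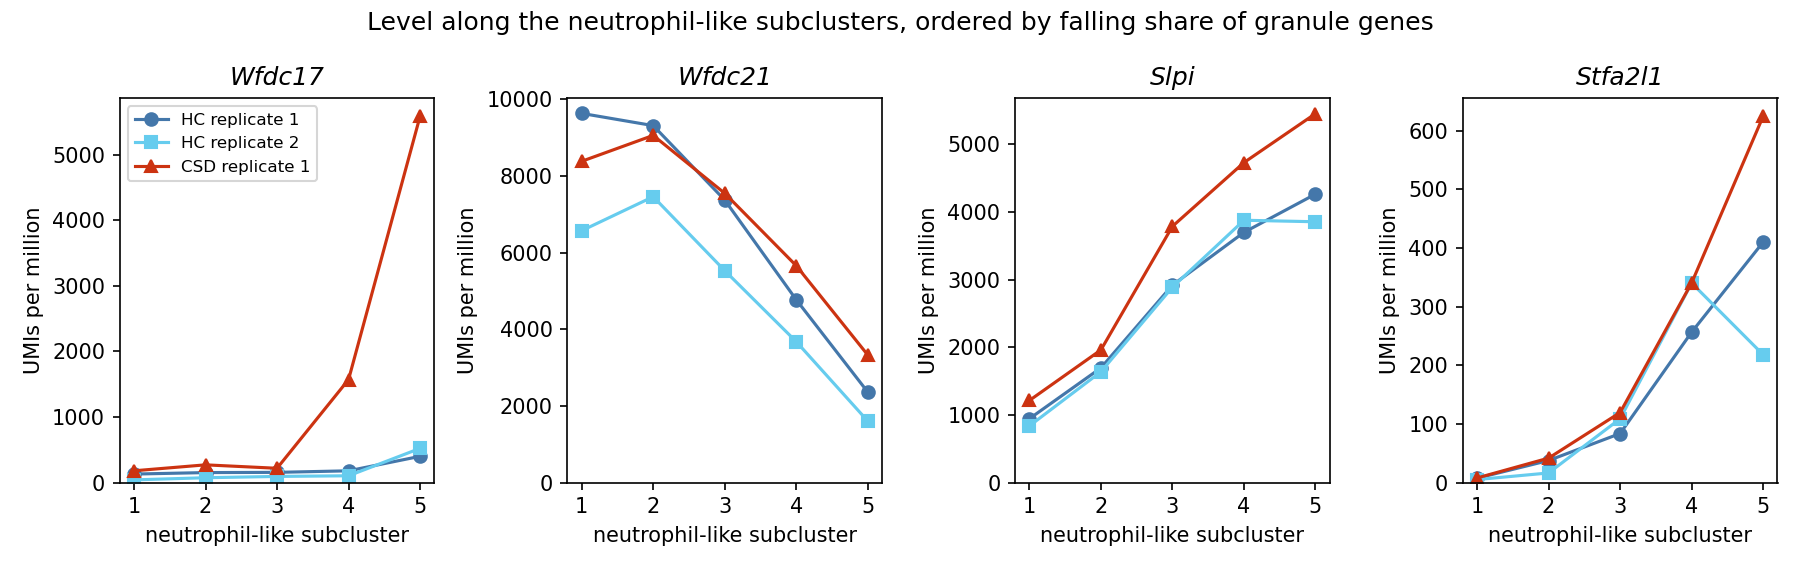
Level of each member (CPM, linear axes from 0) in the 5 neutrophil-like subclusters, numbered by falling share of granule genes, with a line per library. *Wfdc21* is lower and *Slpi* and *Stfa2l1* are higher toward subcluster 5, and the CSD line of *Wfdc17* lies farthest from the HC lines in subclusters 4 and 5.

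Along this order the members diverged, as the lines by subcluster show. *Wfdc21* followed the granule genes, with means of 8199 and 8614 CPM in subclusters 1 and 2, then 6819 and 4703, and 2432 in subcluster 5. *Slpi* ran the other way, with means of 998, 1764, 3198, 4102 and 4524 CPM. *Stfa2l1* was likewise higher at each step, with 6.83 CPM on 10 UMIs, then 31.9, 104, 313 and 418 CPM. The order in each library was the same from subcluster 1 to 4 for *Slpi* and *Stfa2l1*, and in HC replicate 2 both were lower in subcluster 5 than in subcluster 4.

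*Wfdc17* stayed near the lymphocyte background in most HC subclusters. Subcluster 1 held 130, 41.1 and 180 CPM, subcluster 2 held 152, 73.9 and 270, and subcluster 3 held 156, 93.9 and 218, with log2 ratios of CSD to HC of 1.07, 1.26 and 0.80. Those ratios were inside or close to the range of the lymphoid, microglia-like, neuronal and stromal types. In subcluster 4 the level was 179, 104 and 1571 CPM (65, 25 and 1231 UMIs), a log2 ratio of 3.47. In subcluster 5 it was 400, 522 and 5586 CPM (80, 67 and 1394 UMIs), a log2 ratio of 3.60, and HC levels there were also above those of the other HC subclusters. Subcluster 4 held 38.7% and subcluster 5 held 43.8% of the *Wfdc17* UMIs of CSD neutrophil-like cells.

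**Figure D4:**
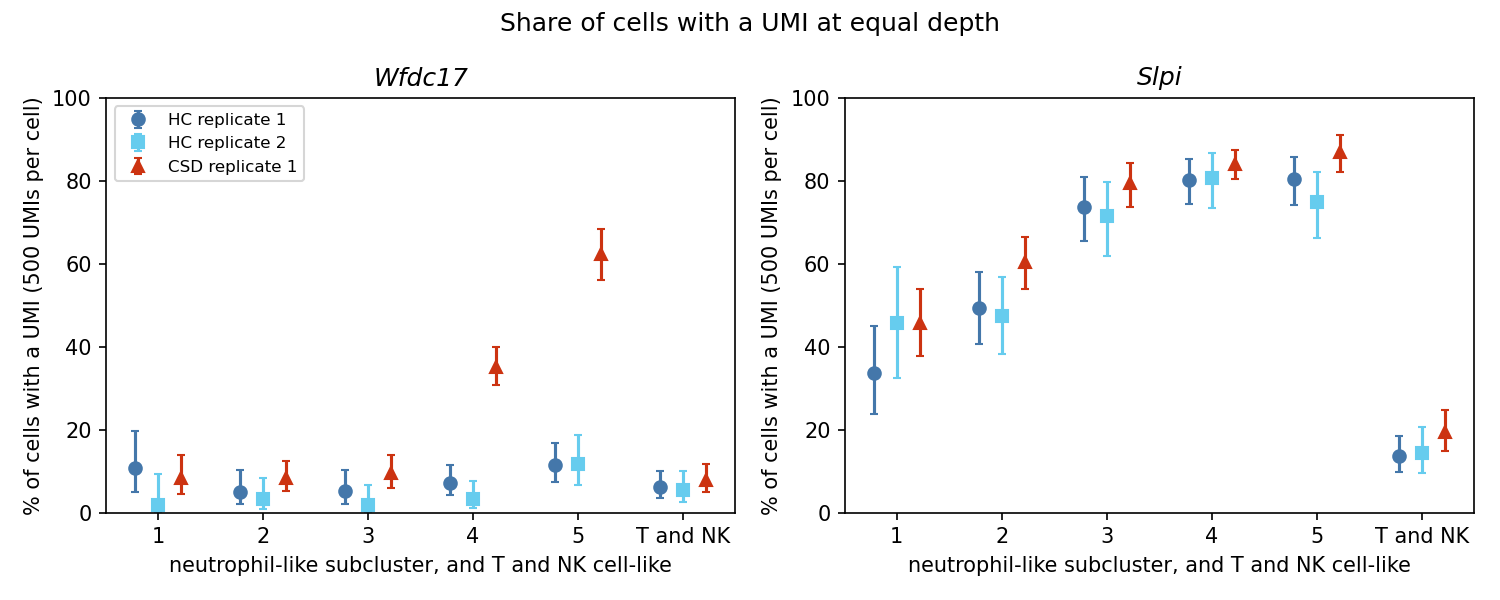
Percent of cells with at least 1 UMI of *Wfdc17* (left) or *Slpi* (right) after thinning each cell to 500 UMIs, in the 5 neutrophil-like subclusters and in T and NK cell-like cells. Bars are exact 95% binomial intervals, which cover counting error only. For *Wfdc17* the CSD intervals stand clear of both HC libraries in subclusters 4 and 5, and for *Slpi* the intervals overlap in most subclusters.

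Counted as cells at equal depth, 7.21%, 3.33% and 35.2% of subcluster 4 had a *Wfdc17* UMI, and 11.6%, 11.8% and 62.4% of subcluster 5. The exact 95% binomial (Clopper-Pearson) intervals in subcluster 5 ran from 7.47% to 16.8% and from 6.76% to 18.7% for the HC libraries, and from 56.0% to 68.4% for the CSD library. Cells with 3 or more of their 500 UMIs from *Wfdc17* made up 2.01%, 2.36% and 34.0% of subcluster 5. The plot of shares of cells thus shows many cells with a UMI, rather than a few cells with very high counts. Subcluster 5 was no larger in the CSD library, at 25.5%, 22.8% and 18.8% of neutrophil-like cells, and subcluster 4 made up 28.5%, 26.9% and 33.2%.

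Monocyte-like cells had the highest *Wfdc17* level, so monocyte markers were summed in the same subclusters. The 13 monocyte markers gave 1822, 2069 and 2279 CPM in T and NK cell-like cells and 10232, 11475 and 13781 CPM in monocyte-like cells. In subcluster 5 they gave 1506, 1628 and 1875 CPM, below the lymphocytes in every library, and in subcluster 4 they gave 1924, 2076 and 2463 CPM, slightly above the lymphocytes in every library. Over all neutrophil-like cells the sum was 3897, 4496 and 5340 CPM, with 7187, 8470 and 9458 CPM in subcluster 1. The CSD library was the highest in each of these classes, and the part of these markers in the *Wfdc17* levels was not tested. Of the 13 monocyte markers 2, 2 and 1 had 0 UMIs in subcluster 5, and the others were detected. Those at 0 were *Vcan* in all 3 libraries and *Ace* in both HC libraries. *Chil3*, which is among these markers, was also a leading gene of subcluster 1. The 13 border macrophage markers were highest in HC replicate 1 and lowest in the CSD library, with 4134, 2227 and 1374 CPM in subcluster 5 and 3569, 1627 and 1103 CPM in T and NK cell-like cells.

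The other members differed less within subclusters. *Slpi* was highest in the CSD library in each of the 5 subclusters, with log2 ratios of 0.23 to 0.45, for example 4264, 3855 and 5453 CPM in subcluster 5. *Wfdc21* was between the HC libraries in subclusters 1 (9637, 6575 and 8386 CPM) and 2, and above both in subclusters 3 to 5, with 2362, 1604 and 3330 CPM (log2 ratio 0.75) in the last. *Stfa2l1* was level with HC replicate 2 in subcluster 4 (257, 340.4 and 340.7 CPM) and highest in the CSD library in subcluster 5 (410, 218 and 625 CPM, from 82, 28 and 156 UMIs).

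Cells with several members at once were also counted. In neutrophil-like cells thinned to 500 UMIs, 7.57%, 5.75% and 22.3% of cells had UMIs of 3 or all 4 members. In subcluster 5 these were 11.1%, 10.2% and 47.0%. All 4 members at once were seen in 0.13%, 0.36% and 3.35% of neutrophil-like cells, and 2.31%, 5.39% and 1.52% had none. A cell with 3 members must hold *Wfdc17* or *Stfa2l1*, so these shares depend on the separate shares given above. Whether members occurred together beyond their separate shares was not tested.

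Border macrophage-like cells were the exception for *Wfdc17*, with 930, 612 and 512 CPM (915, 100 and 163 UMIs), a log2 ratio of -0.59 with the CSD library below both HC libraries. The HC libraries differed by more than HC replicate 2 and CSD replicate 1 did. At equal depth the share of cells with a UMI was 24.0%, 18.2% and 24.8%, so the direction of the level was not seen in the share. At Leiden resolution 2 these cells formed a cluster with high *H2-Aa*, an MHC class II gene, and a cluster with more of the perivascular macrophage genes *Mrc1* and *Lyve1*. The first held 185, 48 and 104 cells and *Wfdc17* levels of 817, 397 and 560 CPM, with the CSD library between the HC libraries. The second held 136, 7 and 25 cells and 1081, 1971 and 257 CPM from 456, 44 and 13 UMIs. The makeup of the class therefore differed between libraries, and its part in the lower level was not tested.

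Other protease inhibitors gave few measurable genes in the same fit. The lists, written with earlier results of these data known, hold 19 further WAP domain genes, 12 stefins and cystatins and 27 serpins and other inhibitors. Of the WAP genes 0 passed the filter on neutrophil-like cells, which leaves *Wfdc17*, *Wfdc21* and *Slpi* as the measurable WAP genes. Of the stefins and cystatins 3 were tested and 0 called by edgeR's quasi-likelihood test, with 1 above and 2 below both HC libraries and a median log2 fold change of -0.02 against -0.01 over all genes. Of the serpins and other inhibitors 2 were tested and 0 called, both above both HC libraries as were 39.9% of all genes, with a median of 0.39. At an unadjusted p under 0.05 there were 2 of these 5 genes, against 140 of 1186 in all, and DESeq2 called 0 of them.

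The named genes of these lists went in different directions without passing the test. *Gm5483*, the stefin A neighbour of *Stfa2l1*, held 287, 214 and 364 CPM (log2 fold change 0.60, edgeR adjusted p = 0.396), and its reads may be shared with other stefin A genes. *Cst3*, which encodes the secreted inhibitor cystatin C, held 1490, 1407 and 866 CPM (-0.67, SE 0.15, adjusted p = 0.379 by edgeR), and in T and NK cell-like cells it was lower in the CSD library as well, at 1157, 1007 and 556 CPM. *Cstb*, the stefin B gene, had a log2 fold change of -0.02 (adjusted p = 0.949). *Serpinb1a*, a serpin that inhibits neutrophil serine proteases, held 337, 404 and 537 CPM (0.61, adjusted p = 0.379), and *Timp2*, a metalloprotease inhibitor gene, had 0.16 (adjusted p = 0.521).

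Serine proteases and cysteine cathepsins, the kinds of protease that such inhibitors act on, were examined, without a check of which inhibitor blocks which. Of 6 serine proteases 2 were tested in neutrophil-like cells and 0 called by edgeR. *Elane*, neutrophil elastase, held 167, 39.5 and 71.5 CPM (log2 fold change -0.51, adjusted p = 0.781), close to its level in T and NK cell-like cells (156, 25.5 and 91.2 CPM). *Prss34*, a mast cell and basophil protease gene, held 146, 128 and 192 CPM (0.55, adjusted p = 0.388), again close to lymphocytes at 165, 120 and 207 CPM. Of 9 cysteine cathepsins 4 were tested and 0 called, with all 4 below both HC libraries, where 37.8% of all genes tested lay, and a median log2 fold change of -0.48 against -0.01 over all genes. *Ctss* held 296, 255 and 113 CPM (-1.22, adjusted p = 0.264), *Ctsb* had -0.49 (adjusted p = 0.438) and *Ctsh* -0.25 (adjusted p = 0.406). In T and NK cell-like cells *Ctss* held 299, 312 and 214 CPM.

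In monocyte-like cells 6 inhibitors were tested and 0 called by edgeR, 1 with an unadjusted p under 0.05 against 225 of 3081 genes in all, while DESeq2 called 0. The lowest adjusted p among all listed genes was that of *Prtn3*, the serine protease proteinase 3, at 74.8, 68.4 and 206 CPM in monocyte-like cells (log2 fold change 1.48, adjusted p = 0.0540).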

How the data were processed

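The authors deposited UMI counts per gene and barcode of 3 libraries, made with Cell Ranger 2 on mm10 per the submitters' processing notes, with no cells called and no normalization. Libraries were told apart by the number that ends each barcode, taken as the group number in the labels. The members and gene lists were chosen with earlier results of these data known. Named genes were the members, of each list the genes called plus the 3 tested with the most UMIs, and the 5 genes most like each member.

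Cells were kept on the limits given above, which are those of the study with a minimum of 500 UMIs. The libraries held 9891861, 8814690 and 10206236 UMIs, of which 91.1%, 59.5% and 93.9% were in cells, which sets the counting error. With 62 inhibitor genes left out, 3000 variable genes, 50 components, mutual-nearest-neighbour correction (20 neighbours) and Leiden clustering at resolution 1 gave 18 clusters (scanpy 1.11.5, Python 3.11.15), named from marker genes, 1 of which stayed unnamed. Doublets were kept, since Scrublet marked only 3 to 50 cells per library. Subclusters came from Leiden resolution 0.9. Free RNA was estimated from 6 B cell genes against barcodes of at most 100 UMIs.

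Sums per library were tested two-sided with edgeR 4.0.16 (quasi-likelihood, TMM, genes in more than 15% of cells, Benjamini-Hochberg, threshold 0.05) in R 4.3.3, with DESeq2 1.42.0 as an alternative. The CSD library, having no replicate, took its spread from the HC libraries. A simulation drew every gene with the same spread and with no effect of pool or free RNA. Its recovery is therefore not the power in the real sums, and a gene not called is not shown to be unchanged. Tested on simulated sums of the neutrophil-like cells (1186 genes, 200 changed 4-fold), edgeR recovered 100% with 7 false calls and DESeq2 100% with 1. For monocyte-like cells (3081 genes) edgeR recovered 96% with 14 false calls and DESeq2 only 62% with 1. Alternatives to the cells, doublets, clusters, depth, free RNA and normalization were fixed beforehand, and those without a subcluster in the counts of genes, or without subcluster 5, were chosen after seeing the data.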

Additional observations from a re-analysis of the deposited data

Results flagged for a closer look

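The log2 ratio of *Wfdc17* had opposite signs in different cell types. The CSD library was below both HC libraries in border macrophage-like cells, with a log2 ratio of -0.59, and above both in 8 of the 9 cell types with at least 100 UMIs of the gene. In border macrophage-like cells the HC libraries themselves differed by -0.60 (HC replicate 2 against HC replicate 1). The share of those cells with a UMI was not lower in the CSD library. Some of the types above both, such as B cell-like cells, lay at the level of the T and NK cell-like background. The difference between the cell types was not tested.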

How the results depend on the processing

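The log2 ratios of the members in neutrophil-like cells, and that of *Wfdc17* in monocyte-like cells, were above 0 under every alternative run (13 of 13 and 10 of 10). *Wfdc17* (2.60) gave 3.38 with cells thinned to 500 UMIs, 3.08 with equal weight for each subcluster and 2.26 without subcluster 5. Leaving out an HC library gave 2.35 to 2.91. With free RNA subtracted its ratio was 4.70. There the estimated free RNA took up all *Wfdc17* UMIs of HC replicate 1. The HC mean then rested on HC replicate 2 alone, so the size of that ratio is not reliable. *Wfdc21* (0.19) ranged from 0.05 to 0.31, and from 0.01 without HC replicate 2 to 0.39 without HC replicate 1, over 1.5 times apart. *Slpi* (0.31) gave 0.33 with at least 1000 UMIs per cell, 0.30 without the top Scrublet scores, 0.29 without mutual-nearest-neighbour correction, 0.34 without subcluster 5, 0.35 without subcluster 1, 0.21 with free RNA subtracted, 0.38 under TMM, 0.37 with equal weights and 0.31 to 0.32 leaving out an HC library. *Stfa2l1* (0.43) gave 0.61 thinned, 0.31 with free RNA subtracted, 0.61 with equal weights and 0.37 to 0.49 leaving out a library. *Wfdc17* in monocyte-like cells (0.42) gave 0.55 thinned, 0.31 with free RNA subtracted and 0.36 to 0.50.

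Counts of genes called were unstable with 1 residual degree of freedom. In neutrophil-like cells edgeR called 1, against 13 by DESeq2, 272 with no filter, 5 with at least 1000 UMIs, 23 without the top Scrublet scores, 14 thinned, 38 without subcluster 5, 13 without subcluster 1 and 0 with free RNA subtracted (64 with an unadjusted p under 0.05). In monocyte-like cells it called 3, against 11 with DESeq2 size factors, 66 with no filter, 32 with at least 1000 UMIs, 54 with mitochondrial shares under 5%, 25 without the top Scrublet scores, 10 without the correction and 0 with free RNA subtracted (125). Of other inhibitors 0 was called, against 4 with no filter (*Gm5483* and *Serpinb1a* higher, *Serping1* and *Timp3* lower) and 1 without subcluster 5 (*Cst3*, lower). Whether edgeR called a member also changed with these settings, and no such call is used. The cause was not tested. The settings without a subcluster in these counts, and all without subcluster 5, were chosen after seeing the data. No paired analysis was possible because the groups share only replicate number 1. Leaving out an HC library leaves no residual degrees of freedom and gives a value with no test.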
